A study of Mus musculus with 7 samples.

Results

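Ovulated mouse oocytes were examined for 7 genes of the signalling between the oocyte and the somatic cells around it, chosen by name from the 18951 gene symbols of the deposited gene table. The genes were Gdf9, Bmp15, Bmp6, Fgf8 and Oosp1, which encode secreted proteins, the receptor gene Kit, and Kitl, the gene of its ligand. All 7 were found and passed the filter on low values, which left 15071 genes to test. RNA came from 4 pools of Nlrp2-null oocytes and 3 pools of wild-type (WT) oocytes, from C57BL/6 females of 4 weeks. Per the labels' protocols, cumulus-oocyte complexes were taken from the ampulla of the oviduct, the oocytes were denuded with hyaluronidase, and about 150 of them, pooled from 3 to 4 mice of the same genotype, made a sample. NLRP2 is a maternal effect protein stored in the egg. The labels do not describe the null allele. The labels name no batch, but the library numbers form a lower range (null 1, null 2, WT 1 and WT 2) and a higher range (null 3, null 4 and WT 3).

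The oocyte controls the cells around it with growth factors of the TGFβ superfamily. GDF9 and BMP15 are close relatives that can act as dimers; in mice GDF9 is needed for follicles to grow past the primary stage, and both factors drive cumulus expansion, hold back luteinization and steer cumulus metabolism. FGF8 from the oocyte cooperates with BMP15 to promote glycolysis in cumulus cells, which supply the oocyte with pyruvate. In the other direction, granulosa cells make KIT ligand, which binds the receptor tyrosine kinase KIT on the oocyte and acts through the PI3K pathway to start and sustain oocyte growth.

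The normalized count, the deposited value, is the number of reads of a gene in a pool divided by the pool's size factor. Behind it stood 71795562 to 79476532 recovered reads in the null pools and 71073973 to 96330083 in the WT pools. The library labels held: Nlrp2 had 1.96 to 107 normalized counts in the 4 null pools and 15527 to 20130 in the 3 WT pools. Oocyte identity was also as labelled, with Zp3 at 10266 to 14348 in null pools and 9699 to 12505 in WT pools, and Ooep at 50122 to 61362 in null pools and 50101 to 59533 in WT pools. Figla was low (20.6 to 66.6 in null pools, 21.9 to 79.0 in WT pools). Transcripts of cumulus and granulosa marker genes were detected in every pool, and whether they came from such cells or from the oocytes was not tested: Fshr was at 131 to 364 in null pools and 214 to 256 in WT pools. Amh, also a granulosa marker, was at 0 to 4.91 in null pools and at 0 in the WT pools. Inha was at 213.5 to 909 in null pools and 177 to 408 in WT pools, highest in null 4. Cyp19a1 was at 3431 to 5248 in null pools and 3601 to 5194 in WT pools, lowest in null 4. Foxl2 was at 15.2 to 78.5 in null pools and 20.0 to 73.7 in WT pools. Has2 was at 75.5 to 421 in null pools and 70.3 to 254 in WT pools. Over 36 cumulus and granulosa markers the mean log2(normalized count + 1) was 8.52, 8.82, 9.40 and 10.03 in null pools 1 to 4 and 9.06, 8.15 and 8.35 in WT pools 1 to 3. Null 3 and null 4 were highest, and the groups overlapped.

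None of the 7 genes passed the test between Nlrp2-null and WT oocytes. The test was limma on log2(normalized count + 1), with a call at a Benjamini-Hochberg adjusted p under 0.05 over all 15071 genes. It called 10 genes in all, or 0.0664% of those tested, so 0 of 7 is near the background. Only Gdf9 had an unadjusted p under 0.05, in limma, edgeR and DESeq2 alike. So did 10.2% of all genes in limma and in edgeR. In DESeq2 the share was 12.5% of the 12991 genes that it gave an adjusted p. In limma 5.28% of genes had such a p with higher and 4.93% with lower values in null pools. edgeR, which called 0.0464% of genes, and DESeq2, which called 1.54% of those 12991, also called 0 of the 7. The log2 fold changes, null minus WT, ran from -0.13 for Fgf8 to 0.20 for Gdf9, with 6 of 7 above 0 and a median of 0.15; over all tested genes 50.7% were above 0 and the median was 0.01. The median of the 7 was not tested.

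**Figure D1:**
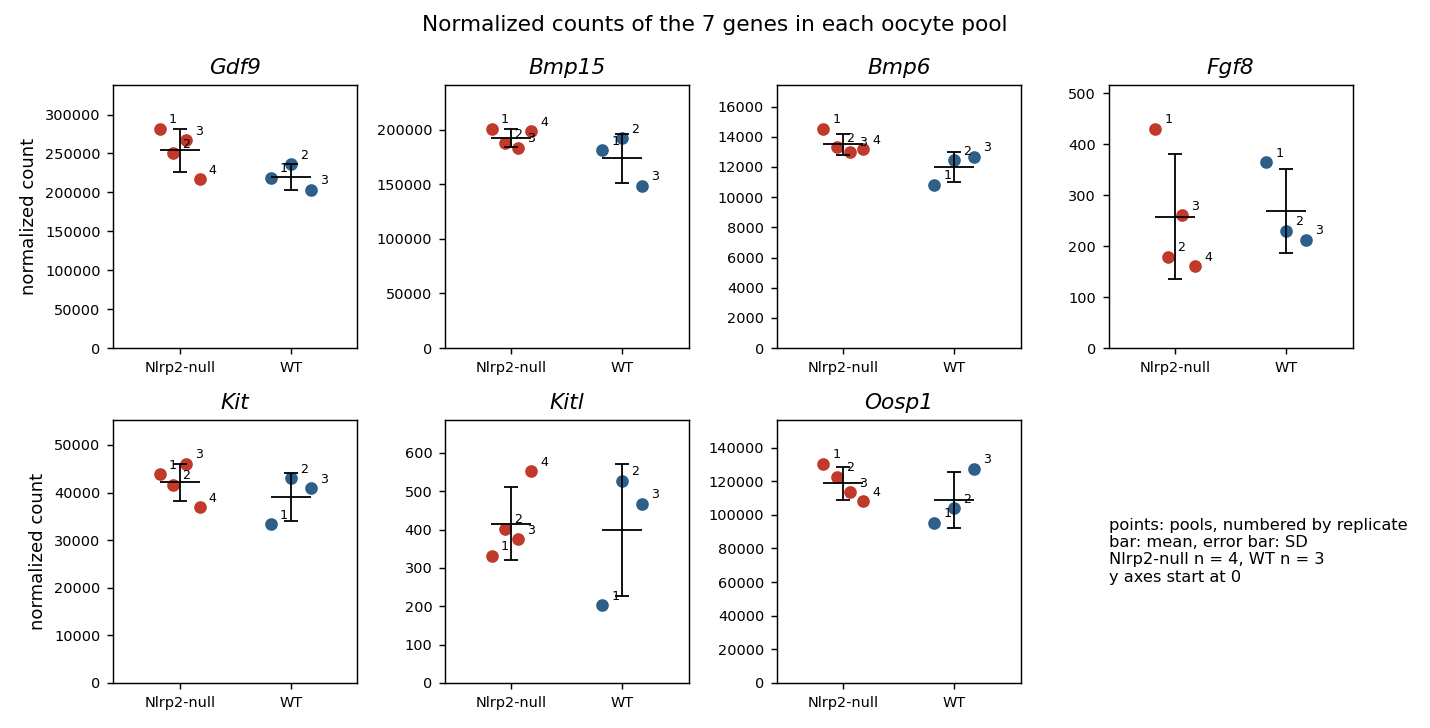
Normalized counts (y axes, from 0) of the 7 genes in each Nlrp2-null pool (red, n = 4) and WT pool (blue, n = 3), with the group mean and SD; numbers beside the points are replicate numbers. The groups overlap in 6 genes, and in Bmp6 the lowest null pool (12998) lies above the highest WT pool (12664).

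Gdf9 was the most abundant of the TGFβ ligands of the oocyte. It lies on chromosome 11 (53431023 to 53437904, plus strand; positions are GRCm38). The pools had 281693, 250155, 266769 and 216707 normalized counts in null pools 1 to 4 and 219069, 236473 and 203490 in WT pools 1 to 3. Null 1, null 2 and null 3 exceeded every WT pool, and null 4 lay within the WT range. The means were 253831 ± 27901 (SD, n = 4) in null pools and 219677 ± 16500 (SD, n = 3) in WT pools. The fold that limma fitted on the log2 scale was 1.15, with a 95% interval of 1.01 to 1.31 (limma log2 difference 0.20 with SE 0.0888 and adjusted p = 0.453). The interval does not hold 1, but it is not adjusted for the number of genes tested. The unadjusted limma p for Gdf9 was 0.0353 in all pools, and without single pools it ran from 0.00627 (without null 4) to 0.151 (without WT 3); it was above 0.05 without null 1, null 2, null 3, WT 1 or WT 3. With equal medians it was 0.288. The log2 difference was 0.22 within the lower library numbers and 0.24 within the higher ones.

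Bmp15, on chromosome X (6314107 to 6320721, minus strand), is the partner of Gdf9 in this system. It stood at 200707, 187726, 183406 and 198469 in null pools 1 to 4 and at 181106, 191918 and 148691 in WT pools 1 to 3. The groups overlapped, and WT 3 was the lowest pool. The means were 192577 ± 8336 in null pools and 173905 ± 22496 in WT pools. The fold that limma fitted on the log2 scale was 1.11 (95% interval 0.982 to 1.26; limma log2 difference 0.15 with SE 0.0856 and adjusted p = 0.573). Without WT 3 the log2 fold change was 0.05. Within the lower library numbers the log2 difference was 0.06, and within the higher numbers, where WT 3 is the sole WT pool, it was 0.36.

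The ratio of Gdf9 to Bmp15 normalized counts within a pool was 1.40, 1.33, 1.46 and 1.09 in null pools 1 to 4 and 1.21, 1.23 and 1.37 in WT pools 1 to 3. The null pools held both the highest ratio and the lowest. On the log2 scale the means were 0.39 ± 0.185 in null pools and 0.34 ± 0.0961 in WT pools, a difference of 0.05 that is smaller than the spread in either group.

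Bmp6 encodes a further bone morphogenetic protein that oocytes make, and was the sole gene of the 7 whose groups did not overlap; 9.91% of all tested genes were of that kind, and 4.74% of all tested genes had the null pools higher. It lies on chromosome 13 (38345107 to 38500302, plus strand). It had 14527, 13322, 12998 and 13163 normalized counts in null pools 1 to 4 and 10830, 12453 and 12664 in WT pools 1 to 3. The 4 null pools exceeded the 3 WT pools, by a narrow margin over WT 2 and WT 3. The means were 13502 ± 696 in null pools and 11983 ± 1004 in WT pools. The fold that limma fitted on the log2 scale was 1.13 (95% interval 0.984 to 1.29; limma log2 difference 0.17 with SE 0.0928 and adjusted p = 0.557). Without WT 1 the log2 fold change was 0.10; the log2 difference was 0.26 within the lower library numbers and 0.05 within the higher ones. Bmp6 has an exon that overlaps Txndc5 on the opposite strand, and whether counting used strand is not stated in the labels, so its level is uncertain.

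Fgf8 was low beside Gdf9, Bmp15, Bmp6 and Oosp1, and uneven. It lies on chromosome 19 (45736798 to 45742915, minus strand). Its normalized counts were 430, 179, 261 and 161 in null pools 1 to 4 and 364, 230 and 212 in WT pools 1 to 3, from 154 to 397 reads a pool. Null 1 and WT 1 were highest, and the null pools spanned the whole WT range. The means were 258 ± 123 in null pools and 269 ± 83.2 in WT pools. The fitted fold was 0.914, with a 95% interval of 0.505 to 1.66 (limma log2 difference -0.13 with SE 0.404 and adjusted p = 0.939). That interval is wide, so changes of that size in either direction were not detectable with these pools. Fgf8 came to between 0.000812 and 0.00214 times the Bmp15 count in null pools and between 0.0012 and 0.00201 times in WT pools, with overlapping groups.

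Oosp1 encodes an oocyte-secreted protein whose gene lies among relatives on chromosome 19 (11667460 to 11691150, minus strand). Its normalized counts were 130575, 122641, 113650 and 108203 in null pools 1 to 4 and 95359, 103868 and 127502 in WT pools 1 to 3. WT 3 exceeded 3 of the 4 null pools, while WT 1 and WT 2 lay below all of them. The means were 118767 ± 9869 in null pools and 108910 ± 16654 in WT pools. The fold that limma fitted on the log2 scale was 1.10 (95% interval 0.951 to 1.26; limma log2 difference 0.13 with SE 0.0965 and adjusted p = 0.680). The direction did not hold within the library numbers: the log2 difference was 0.35 among the lower numbers and -0.20 among the higher ones.

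Its neighbours Oosp2 (11647279 to 11660559, minus strand) and Oosp3 (11697055 to 11711874, plus strand) flank it and did not pass either. Oosp3 averaged 55764 ± 2601 normalized counts in null pools and 54981 ± 7067 in WT pools (limma log2 difference 0.03 with SE 0.0875 and adjusted p = 0.942). As in Oosp1, WT 3 was the highest WT pool of Oosp3, at 62946. Oosp2 averaged 2073 ± 441 in null pools and 2086 ± 308 in WT pools (limma log2 difference -0.02 with SE 0.173 and adjusted p = 0.978). Plac1, a related gene best known from the placenta, was at 90.7 ± 31.1 in null pools and 56.1 ± 47.3 in WT pools (limma adjusted p = 0.667). Of these 3 genes 0 were called by limma, edgeR or DESeq2 and 0 had an unadjusted p under 0.05 in limma.

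Kit, the receptor of the pair, was abundant in ovulated oocytes. It lies on chromosome 5 (75574916 to 75656722, plus strand). Its normalized counts were 43857, 41676, 46095 and 36869 in null pools 1 to 4 and 33330, 43036 and 40914 in WT pools 1 to 3. Null 1 and null 3 exceeded every WT pool, WT 1 was lowest, and the groups overlapped. The means were 42124 ± 3941 in null pools and 39093 ± 5102 in WT pools. The fold that limma fitted on the log2 scale was 1.08 (95% interval 0.933 to 1.25; limma log2 difference 0.11 with SE 0.0997 and adjusted p = 0.747). Without WT 1 the log2 fold change was 0.00, and the log2 difference was 0.17 within the lower library numbers and 0.01 within the higher ones.

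Kitl, which granulosa and cumulus cells express, was low. It lies on chromosome 10 (100015630 to 100100416, plus strand). It had 332, 402, 375 and 552 normalized counts in null pools 1 to 4 and 202, 527 and 468 in WT pools 1 to 3. WT 1 was lowest and null 4 highest, and the groups overlapped. The means were 415 ± 96.0 in null pools and 399 ± 173 in WT pools. The fold that limma fitted on the log2 scale was 1.11, with a 95% interval of 0.662 to 1.85; the ratio of the 2 means was 1.04 (limma log2 difference 0.15 with SE 0.349 and adjusted p = 0.919). The log2 fold change was -0.28 without WT 1 and 0.41 without WT 2, so its direction rested on single pools.

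Kitl did not follow the cumulus and granulosa marker mean across the WT pools, and followed it in part across the null pools. WT 1 had the lowest Kitl value, 7.67 on the log2(normalized count + 1) scale, and the highest marker mean of the WT pools, 9.06. Null 4 had the highest values of both, 9.11 and 10.03, and null 1 the lowest of both among the null pools, 8.38 and 8.52. Null 2 and null 3 were in opposite order in the 2. Fewer cells of a type and less RNA per cell cannot be told apart in such pools. Kit reads outnumbered Kitl reads in every pool: the ratio of their normalized counts was 132, 104, 123 and 66.7 in null pools 1 to 4 and 165, 81.6 and 87.5 in WT pools 1 to 3.

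**Figure D2:**
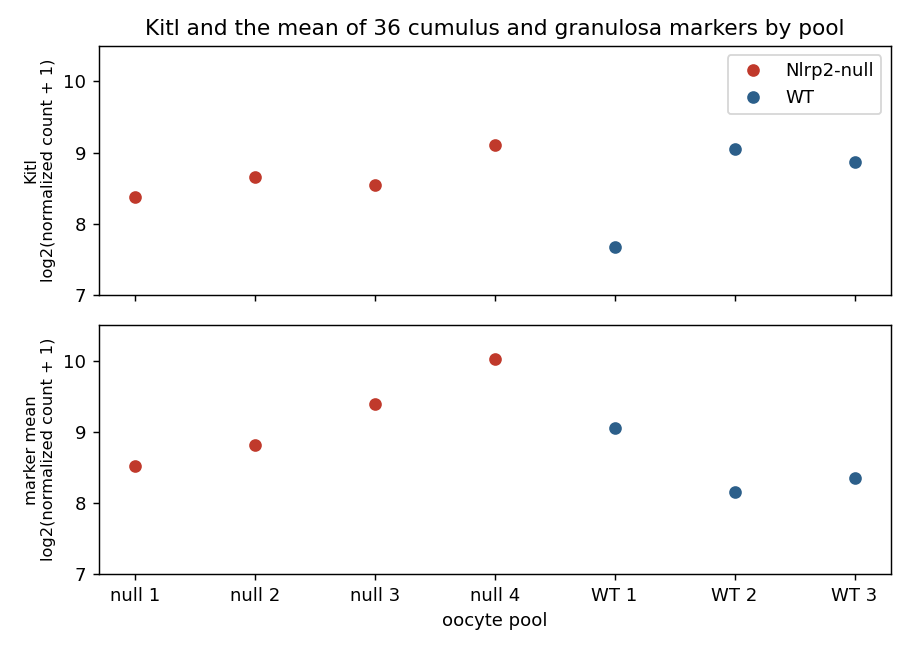
Kitl (upper panel) and the mean of 36 cumulus and granulosa markers (lower panel), both as log2(normalized count + 1), in each Nlrp2-null pool (red) and WT pool (blue). WT 1 is lowest in Kitl (7.67) while its marker mean (9.06) is above that of the other WT pools.

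The cumulus marker mean was also used as a covariate. In that fit, limma gave log2 fold changes of 0.31 for Gdf9 (adjusted p = 0.217), 0.26 for Oosp1 (adjusted p = 0.370), 0.26 for Bmp6 (adjusted p = 0.475) and 0.24 for Kit (adjusted p = 0.473). These 4 genes had an unadjusted p under 0.05 there, as did 8.77% of all tested genes in that fit, and none of the 7 was called. Over 22 alternative fits, none called any of the 7. Gdf9, Bmp15, Bmp6 and Oosp1 had positive log2 fold changes in all 22 and Kit in 21, with 0.00 in the other. Kitl was positive in 18 and Fgf8 in 5. The fits share their pools, so a sign that recurs over them is not independent support. None used the higher library numbers alone, where the log2 difference of Oosp1 was -0.20.

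**Figure D3:**
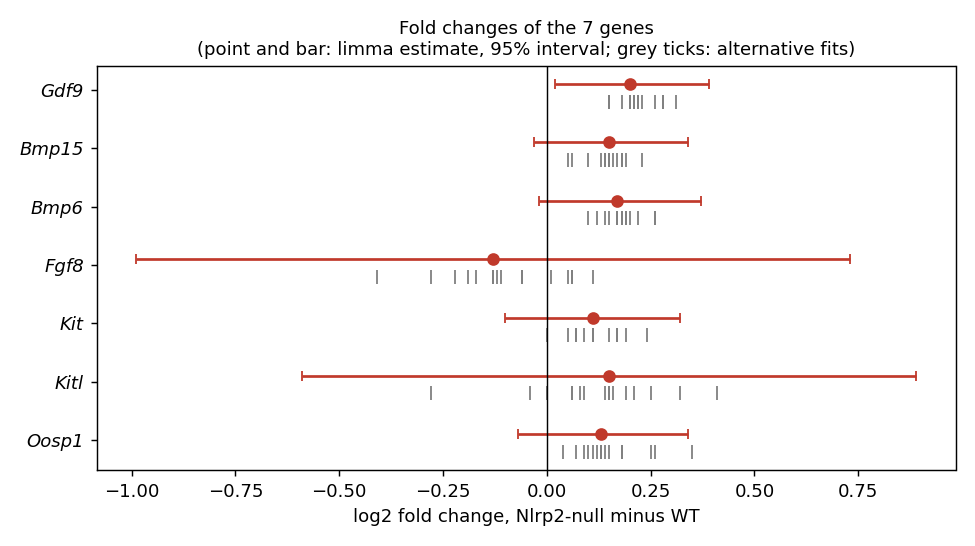
Log2 fold changes (x axis), Nlrp2-null minus WT, of the 7 genes, with limma's 95% interval (red) and the values under 22 alternative fits (grey ticks). The interval of Gdf9 (0.02 to 0.39) lies above 0, those of the other 6 genes include 0, and those of Fgf8 and Kitl are widest.

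Levels of different genes compare only per length, here per kb of the union of annotated exons. On that scale Oosp1 and Gdf9 shared the top. Oosp1 averaged 122188 ± 10154 normalized counts per kb in null pools and 112047 ± 17134 in WT pools, and Gdf9 averaged 124978 ± 13738 in null pools and 108162 ± 8124 in WT pools. They ranked 7 and 8 among 14534 tested genes with an annotated length, and their order changed between pools, Gdf9 being higher in 4 of 7. Bmp15 ranked 28, at 62934 ± 2724 in null pools and 56832 ± 7351 in WT pools.

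A wide gap followed. Bmp15 was 13.2 times as high per kb as Kit, which had 4727 ± 442 normalized counts per kb in null pools and 4387 ± 573 in WT pools. Bmp6 came next, at 3462 ± 178 in null pools and 3073 ± 257 in WT pools, then Fgf8, at 191 ± 91.0 in null pools and 199 ± 61.6 in WT pools. Fgf8 lay above 54.8% of ranked genes. Kitl was lowest, at 70.3 ± 16.2 normalized counts per kb in null pools and 67.5 ± 29.3 in WT pools, which placed it above 38.7% of ranked genes. From Gdf9 downward each neighbouring pair kept its order in all 7 pools, with ranges over the pools that did not overlap. With the longest transcript as the length, Gdf9 was higher than Oosp1 in 6 of 7 pools and Kit averaged 8037 normalized counts per kb in null pools and 7459 in WT pools, and the order of the rest was the same. Oosp3, at 67757 ± 3161 normalized counts per kb in null pools and 66806 ± 8587 in WT pools, ranked 23, and Oosp2 ranked 1078.

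**Figure D4:**
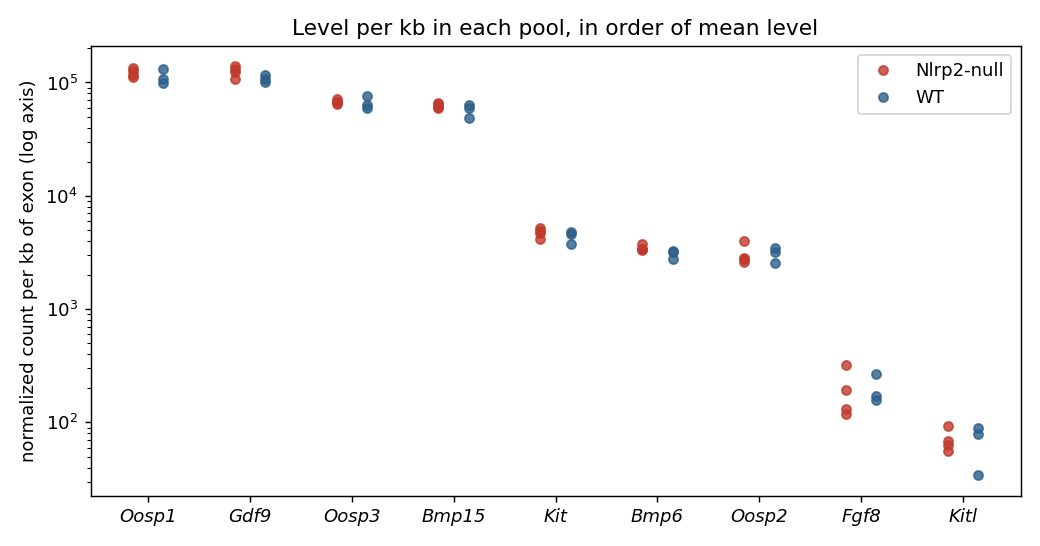
Normalized count per kb of exon (log axis) of the 7 genes and the relatives Oosp2 and Oosp3 in each Nlrp2-null pool (red) and WT pool (blue), ordered by mean level. Oosp1 and Gdf9 overlap at the top, and Fgf8 and Kitl lie lowest; red and blue points overlap in every gene but Bmp6.

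Bmp6, Bmp15, Gdf9, Kit and Oosp1 varied less between pools of a genotype than the median tested gene. The pooled SD within groups, on the log2 scale, was 0.0965 for Bmp6, 0.131 for Bmp15, 0.144 for Gdf9, 0.164 for Kit and 0.165 for Oosp1, against a median of 0.342 over all tested genes. Between 6.51% and 23.2% of tested genes had a smaller value than these 5. That background holds genes of low counts, and genes of like abundance were not compared as a set. Oosp3, also abundant, had 0.1255. Fgf8 (0.561) and Kitl (0.533), the rarest of the 7, lay above the median.

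Promoters of 5 of the 7 genes matched RefSeq's GRCm38.p6 table, which gives 250 bases before to 50 after a start; those of Gdf9 and Fgf8 did not match an entry. Shown are those of an abundant oocyte ligand, an abundant oocyte-secreted protein, and the receptor and ligand of the KIT pair, since these genes span the range of levels above. Capitals mark E-boxes (CANNTG), the words TAATTA and TAATTG, which fit the homeobox factor NOBOX, and TATAAA, each searched on both strands; no marked words overlap. Bmp15 is chrX:6320675-6320974 (minus strand), Oosp1 is chr19:11691002-11691301 (minus strand), Kit is chr5:75574737-75575036 (plus strand, the first of 2 listed starts) and Kitl is chr10:100015571-100015870 (plus strand).
Bmp15: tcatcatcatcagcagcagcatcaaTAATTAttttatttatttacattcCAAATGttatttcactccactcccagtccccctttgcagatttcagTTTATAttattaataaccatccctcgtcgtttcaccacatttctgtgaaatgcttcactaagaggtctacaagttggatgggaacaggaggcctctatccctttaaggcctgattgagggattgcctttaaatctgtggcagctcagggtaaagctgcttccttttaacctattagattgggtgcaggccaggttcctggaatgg
Oosp1: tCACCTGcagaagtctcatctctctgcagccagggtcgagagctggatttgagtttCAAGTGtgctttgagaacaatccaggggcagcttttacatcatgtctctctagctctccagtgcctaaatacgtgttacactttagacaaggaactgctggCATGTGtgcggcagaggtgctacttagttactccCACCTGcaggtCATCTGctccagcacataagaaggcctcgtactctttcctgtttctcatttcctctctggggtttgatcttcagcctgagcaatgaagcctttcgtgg
Kit: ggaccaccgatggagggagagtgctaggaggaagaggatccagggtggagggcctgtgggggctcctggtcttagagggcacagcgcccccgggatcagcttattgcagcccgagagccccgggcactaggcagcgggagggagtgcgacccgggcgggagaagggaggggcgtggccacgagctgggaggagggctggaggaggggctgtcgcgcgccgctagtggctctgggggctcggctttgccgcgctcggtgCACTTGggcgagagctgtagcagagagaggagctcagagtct
Kitl: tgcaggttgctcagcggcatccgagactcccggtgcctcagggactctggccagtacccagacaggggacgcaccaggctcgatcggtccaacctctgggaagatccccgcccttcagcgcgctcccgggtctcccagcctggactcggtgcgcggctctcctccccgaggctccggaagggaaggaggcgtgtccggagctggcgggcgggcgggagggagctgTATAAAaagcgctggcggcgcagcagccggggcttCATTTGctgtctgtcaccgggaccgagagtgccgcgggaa

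The Bmp15 window held 1 word of each kind, TAATTA beginning 225 bases before the start; 12.4% of the 32851 promoters in the table have TAATTA or TAATTG and 72.3% have an E-box. The Oosp1 window held 5 E-boxes and neither other word. The Kit window held 1 E-box, and the Kitl window held 1 E-box and a TATAAA 25 bases before the start, a word that 13.6% of promoters have on either strand. Base composition differed too: G and C made up 41.7% of the Bmp15 window and 49.3% of the Oosp1 window, against 69.0% in Kit, 68.7% in Kitl and a median of 52.7% over all promoters. The Bmp6 window (chr13:38345466-38345765, plus strand) had 69.3% and 2 E-boxes. These matches describe letters in a window and are not binding sites. RefSeq's starts do not match the gene positions given above. In Oosp1, Kit, Kitl and Bmp6 the start used lies inside the gene's span, and so does the TATAAA of Kitl.

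For each gene the 2 with the most similar pattern over the 7 pools were found. Likeness was the root mean square difference between log2 values centred on each gene's own mean, among 10544 genes with a mean of at least 100. Gdf9 was nearest to Fbxo21 (0.0415) and Zfp830 (0.0443), and Bmp15 to Fbxo5 (0.0431) and Gtse1 (0.0538). Bmp6 was nearest to Fryl (0.0315) and Mfap1a (0.0372), Kit to Plag1 (0.0277) and Ankrd50 (0.0429), and Oosp1 to Adgrl2 (0.0516) and Mphosph6 (0.0534). The least close matches were those of Kitl, with Cpsf3l (0.145) and Sned1 (0.160), and of Fgf8, with Tbrg4 (0.216) and Psmb1 (0.222). The member nearest to Gdf9 was Kit (0.126), at rank 378, and the member nearest to Bmp15 was Gdf9 (0.134), at rank 496. Bmp6 and Oosp1 were the closest pair of members (0.0902), with Oosp1 at rank 177 for Bmp6 and Bmp6 at rank 69 for Oosp1. The median difference over all candidates ran from 0.260 for Bmp6 to 0.531 for Fgf8. Genes that vary little between pools lie close on this measure whatever their pattern.

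In the surrounding pathways limma called 0 of the tested genes in each of the 10 pathway lists, and edgeR also called 0. Of 12 other TGFβ and BMP ligands 8 had positive log2 fold changes, with a median of 0.39, and 3 had an unadjusted p under 0.05, all with higher values in null pools. Tgfb2, the most abundant of them, was at 37834 ± 753 normalized counts in null pools and 32948 ± 1265 in WT pools, without overlap (limma log2 difference 0.20 with SE 0.0741 and adjusted p = 0.378). Inhbb, the inhibin and activin βB subunit gene that granulosa cells express, was at 217, 63.5, 235 and 847 in null pools 1 to 4 and 35.8, 14.3 and 8.23 in WT pools 1 to 3. Its log2 fold change came to 3.73 (SE 0.791 and limma adjusted p = 0.101), and DESeq2 called it (adjusted p = 6.6e-06). Once the marker mean, which includes Inhbb, entered the fit as a covariate, its log2 fold change was 2.55. Bmp1, which encodes a procollagen-cleaving protease in spite of its name, was at 326 ± 141 in null pools and 155 ± 115 in WT pools (limma adjusted p = 0.470).

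Among 15 receptors and co-receptors of the family, 11 had positive log2 fold changes, the median was 0.10, and 1 had an unadjusted p under 0.05. That gene was Bambi, a pseudoreceptor, at 94.3, 67.6, 496 and 31.4 in null pools 1 to 4 and 46.4, 4.75 and 14.0 in WT pools 1 to 3 (limma adjusted p = 0.366). The type I receptor gene Tgfbr1 averaged 4309 ± 743 in null pools and 3436 ± 617 in WT pools (limma adjusted p = 0.509), and the type II receptor gene Tgfbr2 averaged 93.6 ± 14.0 in null pools and 42.9 ± 17.9 in WT pools (limma adjusted p = 0.534). Of 19 SMADs and regulators 11 were positive, with a median of 0.03, and 2 had an unadjusted p under 0.05. Skil, a repressor of SMAD signalling, averaged 1850 ± 448 in null pools and 1146 ± 490 in WT pools (limma log2 difference 0.75 with SE 0.251 and adjusted p = 0.328; 0.32 with the marker mean as a covariate). The corepressor gene Tgif1 averaged 541 ± 230 in null pools and 313 ± 134 in WT pools (limma adjusted p = 0.483), and Smad1, a mediator of BMP signals, 3701 ± 1171 in null pools and 2721 ± 630 in WT pools (limma adjusted p = 0.506).

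Of 13 antagonists, 9 had positive log2 fold changes (median 0.33) and 3 had an unadjusted p under 0.05, 2 with higher and 1 with lower values in null pools. Chrdl1, a chordin-like BMP antagonist, was at 21.7, 39.9, 54.0 and 50.2 in null pools 1 to 4 and 180, 358 and 227 in WT pools 1 to 3, without overlap. Its log2 fold change came to -2.61 (SE 0.565 and limma adjusted p = 0.111), and DESeq2 (adjusted p = 0.00052) and limma with pool quality weights (adjusted p = 0.0291) called it lower. Fst, the activin antagonist follistatin and also a granulosa marker, averaged 2671 ± 1244 in null pools and 1156 ± 434 in WT pools (limma adjusted p = 0.219). Fstl1, a follistatin-like gene, averaged 1714 ± 795 in null pools and 1016 ± 75.3 in WT pools (limma adjusted p = 0.437). Fst and Fstl1 were highest in null 4, the pool with the highest cumulus marker mean. With that mean, which includes Fst, as a covariate the log2 fold change of Fst was 0.44, against 1.14 without it. Of 5 proprotein convertases, the enzymes that cut such ligands from their precursors, 2 were positive (median -0.10) and 0 had an unadjusted p under 0.05. Furin, the most abundant, averaged 10531 ± 1829 in null pools and 11428 ± 1355 in WT pools (limma adjusted p = 0.779), and Pcsk6 521 ± 87.5 in null pools and 616 ± 177 in WT pools.

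Of 9 other FGF ligands 3 had positive log2 fold changes, the median was -0.54, and 4 had an unadjusted p under 0.05, all with lower values in null pools and without overlap between groups (5.16% of all tested genes had lower null pools without overlap). Fgf1 was at 1040, 1238, 1574 and 830 normalized counts in null pools 1 to 4 and 1969, 2213 and 1692 in WT pools 1 to 3. Its log2 fold change came to -0.77 (SE 0.206 and limma adjusted p = 0.212), and DESeq2 called it (adjusted p = 0.0468). Fgf10 averaged 702 ± 115 in null pools and 1016 ± 107 in WT pools (-0.54, SE 0.209, limma adjusted p = 0.398), and Fgf9 1535 ± 177 in null pools and 2044 ± 300 in WT pools (-0.41, SE 0.163, limma adjusted p = 0.410). Fgf18 was at 20.6, 167, 70.6 and 2.09 in null pools 1 to 4 and 179, 324 and 252 in WT pools 1 to 3 (limma adjusted p = 0.317). Fgf9 stands here because it completes the 4, chosen after its values were seen.

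Of 17 FGF receptors and feedback genes 11 were positive (median 0.07) and 1 had an unadjusted p under 0.05. This was Spry4, a feedback inhibitor of receptor tyrosine kinase signalling and the most abundant gene of the list, at 88086, 78253, 75026 and 79260 in null pools 1 to 4 and 64717, 67955 and 63300 in WT pools 1 to 3. The 4 null pools exceeded the 3 WT pools; the log2 fold change came to 0.29 (SE 0.0763 and limma adjusted p = 0.201), and DESeq2 called it (adjusted p = 0.024). Over the alternatives its log2 fold change stayed between 0.23 and 0.34. Spred1, a related inhibitor, averaged 2995 ± 318 in null pools and 3548 ± 584 in WT pools (limma adjusted p = 0.612), and Flrt2, a membrane protein of the FLRT family, 202 ± 313 in null pools and 25.9 ± 24.3 in WT pools (limma adjusted p = 0.601).

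Downstream of KIT, 25 of 47 tested genes had positive log2 fold changes, with a median of 0.06, and 2 had an unadjusted p under 0.05. Foxo3, the transcription factor that KIT and PI3K signalling drives out of the nucleus of growing oocytes, was at 45869, 44187, 44502 and 46464 in null pools 1 to 4 and 40948, 40057 and 39652 in WT pools 1 to 3. The groups did not overlap, but the gene did not pass (limma log2 difference 0.17 with SE 0.0718 and adjusted p = 0.437). The adaptor gene Shc1 averaged 4705 ± 572 in null pools and 3757 ± 440 in WT pools (limma adjusted p = 0.410).

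Of 25 genes that oocyte factors regulate in mouse cumulus cells, 19 were positive (median 0.19) and 5 had an unadjusted p under 0.05, all with higher values in null pools. Many of them are also expressed by oocytes or are common metabolic enzymes. Cyp51, the lanosterol demethylase of cholesterol synthesis, was at 776, 963, 1803 and 1448 in null pools 1 to 4 and 574, 619 and 599 in WT pools 1 to 3 (limma log2 difference 0.98 with SE 0.26 and adjusted p = 0.211, DESeq2 adjusted p = 0.014). With the marker mean as a covariate it was 0.67. The receptor gene Egfr averaged 16845 ± 1147 in null pools and 14109 ± 1252 in WT pools (limma adjusted p = 0.372). The expansion genes Has2 and Ptgs2 had log2 fold changes of 0.18 and 0.09.

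**Figure D5:**
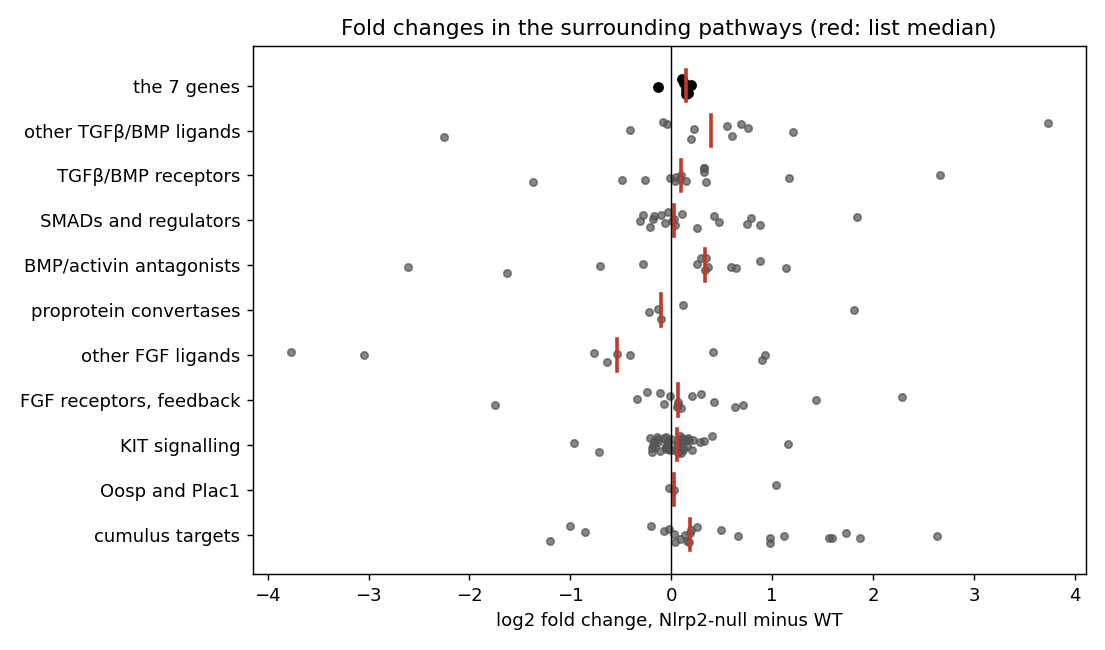
Log2 fold changes (x axis), Nlrp2-null minus WT, of the tested genes of each pathway list (grey) and of the 7 genes (black), with list medians in red. The 7 genes lie between -0.13 and 0.20. Fgf5 at -3.77, Inhbb at 3.73 and Fgf18 at -3.04, all with low counts, are among the values farthest from 0.

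Beside these lists stand the markers of cell types that such pools could hold. Of 36 cumulus and granulosa markers 30 had positive log2 fold changes, with a median of 0.49; limma called 0, 6 had an unadjusted p under 0.05 with higher and 1 with lower values in null pools, and DESeq2 called Inhbb and Igf1. Their summed normalized counts were 73081 to 102781 in null pools and 62367 to 88960 in WT pools. Igf1, a growth factor gene of granulosa cells, was at 706, 826, 1496 and 1796 in null pools 1 to 4 and 613, 488 and 265 in WT pools 1 to 3 (limma adjusted p = 0.166). Of 12 oviduct epithelium markers 11 were positive (median 1.49) and 4 had an unadjusted p under 0.05 in limma, with higher values in null pools. Over all tested genes 50.7% were positive and 5.28% had such a p with higher values in null pools. The 4 were Cdh1, Krt8, Ovgp1 and Cldn4. Foxj1 was at 0 in all null pools and in 2 of the 3 WT pools. Null 4 stood apart in several of these markers, named after their values were seen: Krt19 was at 448 there and at 0 in the other 6 pools, Krt7 at 387 against 0 to 8.67 in the other null pools and 0 to 4.12 in WT pools, and Epcam at 849 against 78.0 to 161 in the other null pools and 136 to 199 in WT pools. Other markers of the list were not high there. Cldn4 was at 217, 69.6, 175 and 54.4 in null pools 1 to 4, and Ovgp1 at 106, 26.6, 93.2 and 49.2. Cdh1 was lowest of the null pools in null 4, at 27978. Without null 4, an alternative chosen after seeing the data, 8 of the 12 were positive with a median of 0.57, and 3 had an unadjusted p under 0.05; of the cumulus and granulosa markers 29 of 36 were positive with a median of 0.22, and 3 had such a p with higher and 1 with lower values in null pools. Ovgp1 averaged 68.8 ± 37.2 in null pools and 16.4 ± 13.6 in WT pools (limma adjusted p = 0.435), and Krt8 303 ± 273 in null pools and 87.8 ± 43.1 in WT pools (limma adjusted p = 0.388; log2 fold change 1.54, and 1.02 without null 4). The sum of that list, 29483 to 36791 in null pools and 20794 to 30663 in WT pools, was mostly Cdh1, which oocytes express. Of 5 blood markers 2 were positive (median -0.38), and 0 were called or had an unadjusted p under 0.05. Lyz2, the most abundant, was at 159, 589, 2427 and 0 in null pools 1 to 4. In WT pools 1 to 3 Lyz2 was at 324.5, 75.1 and 218. Itgam was at 8.67, 149.5, 347 and 0 in null pools 1 to 4 and 174, 5.70 and 34.6 in WT pools 1 to 3. The macrophage marker Cd68 averaged 131 ± 32.3 in null pools and 214 ± 33.4 in WT pools. Adgre1 averaged 18.7 ± 18.9 in null pools and 3.73 ± 3.69 in WT pools, and Ptprc 16.9 ± 9.90 in null pools and 10.3 ± 9.54 in WT pools. The part of cells of these types in the values of Kitl, Inhbb, Fst, Igf1 and Cyp51 was not tested. The marker mean holds Inhbb, Fst and Igf1 themselves, so the covariate fit cannot decide it for them.

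Oocyte markers gave a yardstick for the 7 genes. Of 18 tested, 9 had positive log2 fold changes, with a median of 0.00, and limma called 0; summed normalized counts were 744018 to 824402 in null pools and 734288 to 804299 in WT pools. The 3 with an unadjusted p under 0.05 had lower values in null pools. They were Dazl (32252 ± 1463 in null pools and 42830 ± 3705 in WT pools, called by DESeq2), Nobox (29316 ± 1166 in null pools and 34809 ± 4858 in WT pools, limma adjusted p = 0.397) and Lhx8 (10338 ± 673 in null pools and 12197 ± 889 in WT pools, limma adjusted p = 0.411). Nobox and Lhx8 encode transcription factors of growing oocytes, and Nobox acts on Gdf9 in mice.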

How the data were processed

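RNA was measured in 4 Nlrp2-null and 3 WT oocyte pools. Per the labels' protocols, libraries were made from amplified cDNA (NuGEN, oligo d(T) and random primers), so reads are not independent molecules. Values in the deposited gene table are normalized counts (a signal: the count that the authors divided by a size factor per pool, per the file headers and name), with genes as symbols. Every value was a whole multiple of its pool's step within 0.01 (100% of values), which gave the recovered reads. Per the submitters' processing notes the tools include STAR 2.5.0a, featureCounts 1.5.0-p1 and DESeq2 1.22.2 and the builds GRCm38 and mm10. Which tool made this table, with which annotation and strand setting, is not given in the sources used. A second deposited table names transcripts by assembly identifiers and was not used here.

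The main test was limma 3.58.1 (R 4.3.3) fitted to log2(normalized count + 1) with its trend option, null pools minus WT pools, over 15071 genes with a mean of at least 10, with Benjamini-Hochberg adjustment and calls under 0.05. It had 5 residual and 10.9 prior degrees of freedom, and the median SE of a log2 fold change was 0.277. The added 1 draws the fold changes of low genes toward 0: Nlrp2 was at -9.79 with 0.5 added and at -8.87 with 10. Fold changes on this scale can still exceed those of a count test. Nlrp2 was at -9.70 here and at -8.59 in DESeq2. edgeR 4.0.16 and DESeq2 1.42.0 on the recovered reads were alternatives; these 3 tests were tested on simulated data. Pools of a group differed by more than sampling noise (chi-square over its degrees of freedom was 36.6 or more). Exon lengths and positions came from GENCODE M21 (GRCm38), and 18214 of 18951 symbols had a length. Named genes were the 7, Nlrp2, the up to 3 genes of each list with the smallest p, and the 2 genes nearest to each member; other genes were chosen after their values were seen, and a few that the rule selects are not reported here. Of 48 genes under this rule other than the nearest ones, 12 have an exon that overlaps another gene, 10 on the opposite and 2 on the same strand, and their levels are uncertain. The labels do not say that pools are separate litters or days, so p-values measure the spread between these pools. The members and lists were chosen with earlier results of these data known.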

Additional observations from a re-analysis of the deposited data

Results flagged for a closer look

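In 51 groups of the 4 null pools, over the named genes, 3 within-pool ratios and the marker mean, a single pool stood apart from the other 3 by more than Dixon's 95% critical value for the gap over the range in 4 cases; chance flags about 1 in 20 groups. Bambi had 496 normalized counts in null 3, against 31.4 to 94.3 in the other null pools. Flrt2 had 670 (669.7) in null 4, against 6.50 to 80.4. Krt8, an epithelial keratin gene, had 707 in null 4, against 137 to 228. Oosp2, a relative of Oosp1, had 2727 in null 1, against 1761 to 1923. No null pool stood apart in this way in any of the 7 genes.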

How the results depend on the processing

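None of the 7 genes was called in any of 22 alternative fits, with 0 to 4 of them at an unadjusted p under 0.05; the 4 came with the marker mean as covariate, where 8.77% of all genes had such a p. Calls over the whole table (10) came to 6 with equal medians in every pool, 68 with pool quality weights and 200 with DESeq2. limma without a variance trend called 0 genes (1252 with an unadjusted p under 0.05), and the 4 pools of the lower library numbers alone gave 0 (942). Leaving out 1 pool gave 2 to 16 calls: 16 without null 1, 2 without null 3, 4 without null 4 or without WT 2, and 5 without WT 3. The replicate numbers do not pair the pools: deviations of same-numbered pools from their group means correlated at -0.16, 0.02 and -0.01, and a replicate block gave 1 call. Values near 0, and some farther from it, changed sign. Fgf8 was at 0.05 with the marker mean as covariate, 0.06 with the replicate block and -0.41 to 0.11 when leaving out 1 pool. Kitl was at -0.04 with pool quality weights and -0.28 to 0.41 when leaving out 1 pool. Oosp2 was at 0.06 with the covariate, 0.01 with the replicate block, 0.17 in the lower library numbers alone and -0.16 to 0.07 when leaving out 1 pool. Oosp3 was at -0.03 with equal medians and with pool quality weights, and -0.05 to 0.13 when leaving out 1 pool. With the covariate, Furin was at 0.07, against -0.13 in the main fit. Flrt2 and Ptprc were not near 0 in the main fit, at 2.29 and 0.99. With the covariate they were at -0.33 and -0.07. Nlrp2 (-9.70, limma adjusted p = 6.98e-05) was called in 19 of the 22 fits. The causes were not tested. Fgf8 and Kitl rest on 154 to 568 reads a pool, and their SD within groups was 0.561 and 0.533 on the log2 scale.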
